A study of Mus musculus with 6 samples.

Results

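The 10 imprinted genes of 6 chromosomal domains described here were followed in cultured mouse spermatogonia, with and without Cre-mediated targeting of Cdkn1c, the imprinted gene of the cyclin-dependent kinase inhibitor p57. They were chosen by gene symbol: Mest and Copg2, Peg3, Usp29 and Zim1, Peg10 and Sgce, Plagl1, Grb10 and Igf2r. All 10 were found among the 32285 rows of the count table, each in a single row, and all 10 passed the filter on low counts. The cells were GS cells, germline stem cell cultures derived from testis, labelled as spermatogonia. There were 3 control libraries, of genotype p57 flox/flox, and 3 p57 KO libraries, of genotype p57 flox/flox-Cre, so that every library carried the floxed alleles. Cre was delivered by adenovirus and RNA was taken 2 days after infection, after trypsin treatment and a Sephadex column. The sources used here do not say what virus, if any, reached the controls, or how many GS cell lines were used. The labels name BDF1 mice in one place and C57BL/6 and 129 strains in another, and the age of the donor mice is given as 3 days and as 10 days.

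An imprinted gene is transcribed mainly from the allele inherited from a given parent, because a control region in its domain carries DNA methylation on the other parent's chromosome or on the same one. In somatic cells the control regions of these 6 domains are methylated on the maternal chromosome, and the mark is set in the oocyte. The parental marks are erased in primordial germ cells, and new ones are set later in the germ line of the same animal. Mest, Peg3, Usp29, Peg10, Sgce and Plagl1 are expressed from the paternal chromosome in most tissues, whereas Igf2r, Zim1 and, outside the brain, Grb10 are expressed from the maternal one. Several of these genes are known from mouse growth: Igf2r and Grb10 restrain growth, and Peg3 and Mest favour it before birth. The counts do not separate the alleles.

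In p57 KO 5 of the 10 genes rose, 2 fell and 3 did not pass the test. Igf2r, Grb10, Plagl1, Peg3 and Sgce were higher, and Mest and Copg2 were lower. Of all 14814 tested genes 23.3% were called changed, 11.6% higher and 11.6% lower (edgeR quasi-likelihood test, adjusted p under 0.05). The groups did not overlap for 8 of the 10 genes, 6 higher and 2 lower, against 39.2% of all tested genes, 19.5% higher and 19.7% lower. The median log2 fold change was 0.31 over the 10 genes and -0.0019 over all tested genes. Among the called genes the folds were largest for Sgce (2.03-fold) and Plagl1 (1.73-fold). These were also the genes that passed a test for a change beyond 1.2-fold, as 3.17% of all genes did.

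**Figure D1:**
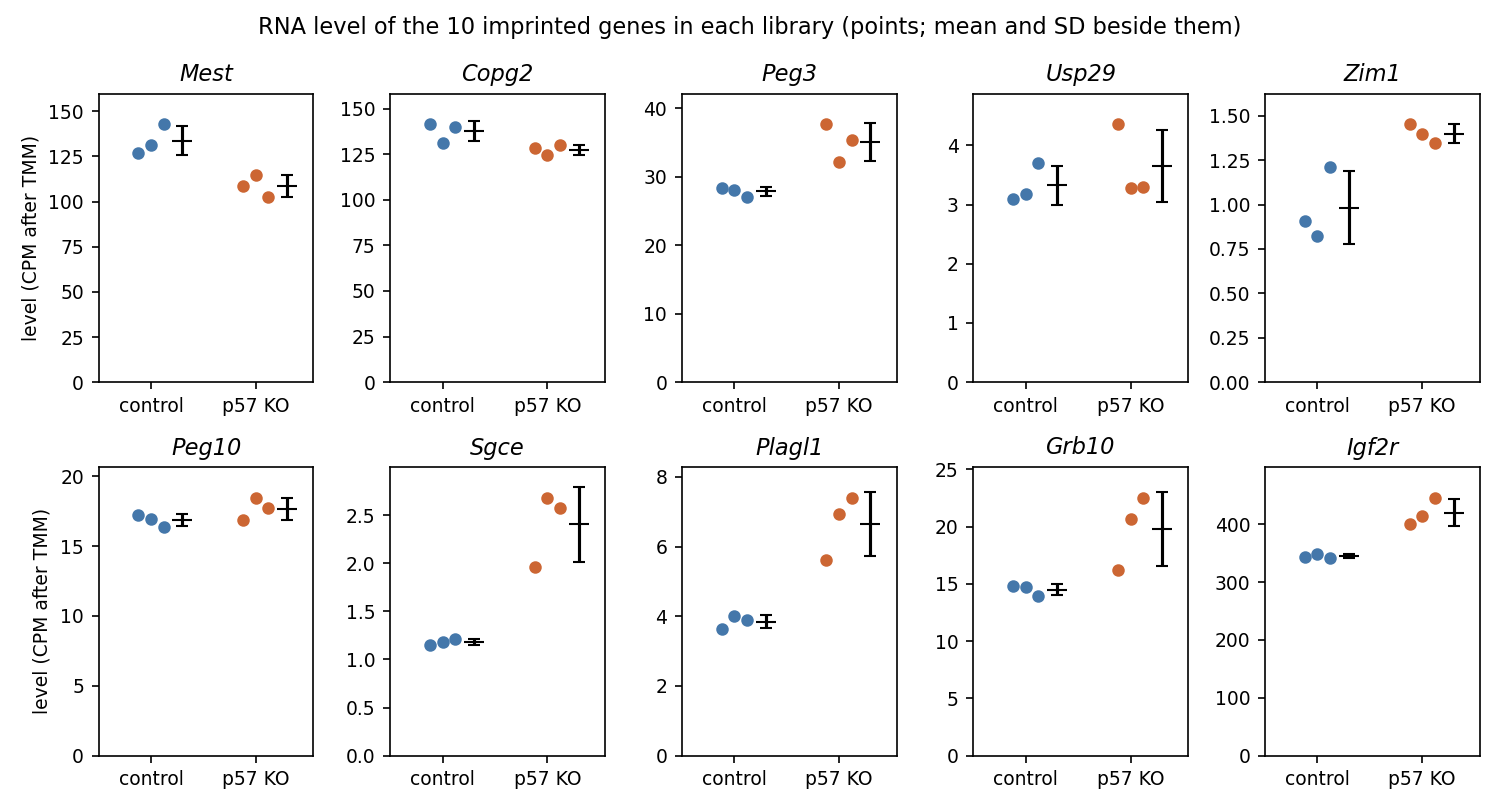
RNA level of each gene in each of the 6 libraries, in CPM (counts scaled to library size) after TMM scaling, with axes that start at 0. Points are libraries, and the bar beside them is the mean with its SD (n = 3). The p57 KO points lie above all control points for Peg3, Zim1, Sgce, Plagl1, Grb10 and Igf2r, and below them for Mest and Copg2.

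The libraries held 15662833 to 17893671 counts. The targeted gene Cdkn1c was at 19.9 to 21.4 CPM in control and at 8.51 to 9.44 CPM in p57 KO (log2 fold change -1.22, SE 0.09, edgeR adjusted p = 4.07e-09), in the direction of the labels. All 17 listed markers of undifferentiated spermatogonia were detected. Their summed level was 4802 to 4903 CPM in the controls and 4157 to 4374 CPM with p57 KO, where 10 of them fell and 1 rose. DESeq2 gave 0 rises and 10 falls, limma-voom 0 and 9, and edgeR with a library left out 0 to 2 rises and 9 to 10 falls. Of 20 markers of fibroblasts, the usual feeder cells of such cultures, 6 rose and 0 fell in edgeR, 16 rose in DESeq2 and 17 in limma-voom, and 2 (control replicate 3 left out) to 13 (p57 KO replicate 1 left out) rose in edgeR with 5 libraries. For 16 the p57 KO libraries lay above all control libraries. None was at 0, and their summed level was 941 to 1217 CPM in the controls and 1485 to 2987.5 CPM with p57 KO. The mean log2 CPM of these markers, called the fibroblast score below, was 3.57, 4.15 and 3.61 in control replicates 1 to 3 and 4.40, 4.998 and 5.52 in p57 KO replicates 1 to 3. In RNA from mixed cells, fewer cells of a type and less RNA per cell cannot be told apart. Markers of Sertoli cells summed to 32.2 to 36.0 CPM in the controls and 32.1 to 33.8 CPM with p57 KO, and of 6 tested 0 rose and 0 fell. Those of Leydig and peritubular cells were higher in every p57 KO library, with sums of 9.83 to 11.8 against 14.1 to 15.9 CPM. Of 3 tested in this list 2 rose, Des (log2 fold change 0.87) and Myh11 (0.47), genes of muscle-type cells, and 1 rose in DESeq2, in limma-voom and in 5 of the 6 edgeR fits with a library left out. The Leydig marker Hsd3b1 was at 0 in all 6. The macrophage and endothelial markers summed to 95.4 to 99.8 CPM in the controls and 92.6 to 94.7 CPM with p57 KO, and of 5 tested 2 rose and 2 fell. The part of these other cells in the results below was not tested.

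A model with the fibroblast score beside the group left 1 of the 7 calls, that of Peg3. In that model 2.86% of all genes were called, and the score itself did not overlap between the groups. Of the 17 markers of undifferentiated spermatogonia, 5 fell and 0 rose in it. The values of this model are given below for each of the 10 genes.

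Levels per kilobase of exon spanned a 332-fold range among the 10 genes in control. Igf2r came first with 37.0 ± 0.388 CPM per kb (SD, n = 3), before Mest with 33.9 ± 2.06 and Copg2 with 26.9 ± 1.07. Peg10 with 2.53 ± 0.0663, Peg3 with 2.09 ± 0.0531 and Grb10 with 1.60 ± 0.0549 CPM per kb formed a middle tier, 10.6-fold below Copg2 at its upper end. Plagl1 followed with 0.492 ± 0.0239, Usp29 with 0.184 ± 0.0184, Zim1 with 0.122 ± 0.0254 and Sgce with 0.111 ± 0.00293 CPM per kb. Neighbours in this order did not overlap between libraries, except Zim1 and Sgce. In p57 KO the first 7 places were the same, but Peg10 overlapped Peg3 and Peg3 overlapped Grb10. Sgce moved from the last place to the eighth, where it overlapped Usp29. The exon lengths are unions over all annotated transcripts, so that the per-length level of a gene with many alternative exons is understated.

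**Figure D2:**
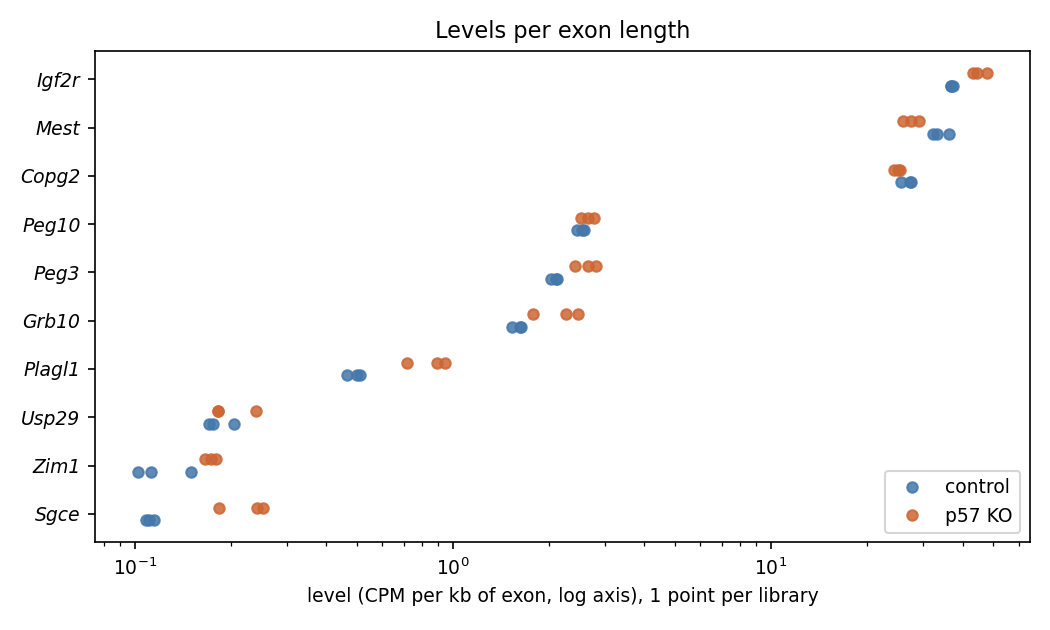
Level of each gene per kilobase of annotated exon, on a log axis, with 1 point per library. Igf2r, Mest and Copg2 stand apart at the top in both groups, and Sgce and Zim1 are lowest in control.

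Igf2r encodes the cation-independent mannose 6-phosphate receptor, which carries lysosomal enzymes to lysosomes and clears the growth factor IGF2. On chromosome 17 of mm10 it spans 12682406 to 12769664, minus strand. It was at 342, 349 and 342 CPM in control and at 400.2, 415 and 445 CPM in p57 KO. Every p57 KO library was above every control library, and the p57 KO libraries differed more among themselves. Igf2r rose from a mean of 344 ± 3.62 to 420.1 ± 23.0 CPM (± SD, n = 3). By edgeR this came to 0.29 ± 0.03 (SE) on the log2 scale, with an adjusted p of 5.59e-06. Beside the fibroblast score the log2 fold change was 0.15 (SE 0.05; adjusted p = 0.0832 by edgeR). Its start lies in a window rich in CG dinucleotides, shown here because methylation at CG is the mark of imprinting. The start windows shown here and below need not be the control regions of their domains, and methylation was not measured. The 300 bases at chr17:12769657-12769956, from 250 before to 50 after the start, held 34 CG, a number reached by 7.73% of 32851 such windows in RefSeq (GRCm38.p6). In all sequences below, capitals mark TGCCGC or its reverse complement GCGGCA, the letters that ZFP57, a zinc finger protein which protects imprints, recognises when methylated. The Igf2r window held none.
Igf2r: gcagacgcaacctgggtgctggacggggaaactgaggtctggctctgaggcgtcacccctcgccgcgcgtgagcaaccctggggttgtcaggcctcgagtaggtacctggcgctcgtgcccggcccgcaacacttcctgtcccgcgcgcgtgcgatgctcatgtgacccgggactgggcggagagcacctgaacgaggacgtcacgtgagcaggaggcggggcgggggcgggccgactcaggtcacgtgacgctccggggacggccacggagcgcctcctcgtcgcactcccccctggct

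Airn, the antisense RNA that starts inside Igf2r and is known to silence it on the paternal chromosome, was at 0.789, 1.53 and 1.34 CPM in control and at 1.45, 2.92 and 3.30 CPM in p57 KO. Its groups overlapped, through control replicate 2 and p57 KO replicate 1. Airn rose by 1.07 on the log2 scale (SE 0.31; adjusted p = 0.0192 by edgeR). The call did not hold with limma-voom (adjusted p = 0.0586), nor in edgeR when any of 4 libraries was left out: control replicate 1 (0.0870) or 3 (0.0651), or p57 KO replicate 2 (0.0892) or 3 (0.0724). Given the fibroblast score, the log2 fold change was -0.15 (adjusted p = 0.937). The genes share 28354 bp on opposite strands but no exon sequence. Exons of Airn in this stretch lie in introns of Igf2r, and no source used here gives the strand setting. Unspliced Igf2r RNA counted as Airn therefore cannot be told apart from Airn.

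Grb10 encodes an adaptor that binds the insulin and IGF1 receptors and dampens their signal. On chromosome 11 it spans 11930508 to 12038683, minus strand. Its levels were 14.9, 14.7 and 13.9 CPM in control and 16.2, 20.6 and 22.5 CPM in p57 KO. All p57 KO libraries were above the control libraries, with p57 KO replicate 1 close to them. Grb10 rose from a mean of 14.5 ± 0.499 to 19.8 ± 3.23 CPM (± SD, n = 3). edgeR put the log2 fold change at 0.45 ± 0.10 (SE), with an adjusted p of 0.00356. Once the fibroblast score was included, the log2 fold change was 0.04 (SE 0.16; adjusted p = 0.948 by edgeR). Of its 2 RefSeq start windows, the one at chr11:12037371-12037670 is shown because it held 45 CG, a number reached by 1.93% of all windows, against 9 in the other. It held TGCCGC once, on either strand counted together, as did 11.6% of all windows at least once.
Grb10: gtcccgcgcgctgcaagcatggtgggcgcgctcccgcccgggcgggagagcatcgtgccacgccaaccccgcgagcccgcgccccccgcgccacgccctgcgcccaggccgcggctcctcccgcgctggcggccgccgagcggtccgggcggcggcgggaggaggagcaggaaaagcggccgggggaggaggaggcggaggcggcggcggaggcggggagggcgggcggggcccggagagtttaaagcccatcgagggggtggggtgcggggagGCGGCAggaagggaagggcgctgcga

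Genes of insulin and IGF signalling, the pathway these products restrain, were also counted. Beside this list and those below stand all tested genes, of which edgeR called 11.6% higher and 11.6% lower. Of 32 tested in this list, 4 rose, 8 fell and 20 were not called, with a median log2 fold change of -0.04. These counts depended on the fit, with 7 rises and 6 falls in DESeq2 and 7 and 8 in limma-voom. In edgeR 2 rose when control replicate 1 or 3 was left out, and 8 when p57 KO replicate 1 was. Pdk1, counted among the genes that fell (log2 fold change -0.16), encodes a pyruvate dehydrogenase kinase and does not belong to this pathway. Igf1r, the gene of the receptor that transmits the IGF1 and IGF2 signal, was at 325, 310.4 and 309 CPM in control and at 267, 249 and 249 CPM in p57 KO. It fell by 0.30 on the log2 scale (SE 0.03; adjusted p = 4.9e-07 by edgeR), and with the fibroblast score by 0.20 (adjusted p = 0.0187). It was the 1 gene of the list called in that model. Rictor, a subunit of the mTORC2 kinase complex, and Igf2bp1, which encodes an RNA-binding protein of Igf2 mRNA, had log2 fold changes of -0.25 and -0.22. The kinase gene Akt1 rose by 0.19. The ligand gene Igf2 was at 208 ± 9.63 CPM in the controls and 222 ± 22.9 CPM with p57 KO (edgeR adjusted p = 0.51), and the insulin receptor gene Insr at 17.2 ± 1.54 and 16.6 ± 0.95 CPM (0.696).

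The sorting route of lysosomal enzymes, in which the product of Igf2r acts, gave 2 rises and 6 falls among 23 tested genes, with a median log2 fold change of -0.0049. DESeq2 gave 1 rise and 5 falls, limma-voom 3 and 5, and the edgeR fits with a library left out 1 to 4 rises (4 without p57 KO replicate 1, 1 without any of the others) and 4 to 6 falls. Sort1, which encodes the sorting receptor sortilin, had a log2 fold change of -0.26. Nagpa, which encodes the enzyme that uncovers mannose 6-phosphate, had -0.24. Lamp2, a lysosomal membrane protein gene, had -0.15 (adjusted p = 0.0542 in edgeR when control replicate 3 was left out). M6pr, the gene of the other mannose 6-phosphate receptor, went from 257 ± 1.40 to 246 ± 5.05 CPM (edgeR adjusted p = 0.0973). Lamp2 was the 1 gene of the list called in the model with the fibroblast score.

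Plagl1, also known as Zac1, encodes a zinc finger transcription factor that can halt the cell cycle and that regulates other imprinted genes. It lies on the plus strand of chromosome 10 from 13060504 to 13131694. Its levels were 3.64, 4.002 and 3.90 CPM in control and 5.62, 6.94 and 7.39 CPM in p57 KO, and the groups were well apart. Plagl1 rose from a mean of 3.85 ± 0.186 to 6.65 ± 0.923 CPM (± SD, n = 3). On the log2 scale this was 0.79 ± 0.15 (SE), with an adjusted p of 0.000645. It rested on 60 to 68 counts in each control and 89 to 132 in each p57 KO library. Beside the fibroblast score the log2 fold change was 0.41 (SE 0.26; adjusted p = 0.503 by edgeR). Its RefSeq window, chr10:13090582-13090881 on the plus strand, held 26 CG and 1 copy of GCGGCA.
Plagl1: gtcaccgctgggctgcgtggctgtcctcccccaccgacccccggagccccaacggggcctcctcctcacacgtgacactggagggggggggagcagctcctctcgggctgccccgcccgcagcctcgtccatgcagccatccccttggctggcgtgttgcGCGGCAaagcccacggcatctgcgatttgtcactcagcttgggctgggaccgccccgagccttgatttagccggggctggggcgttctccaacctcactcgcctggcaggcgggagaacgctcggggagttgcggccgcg

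**Figure D3:**
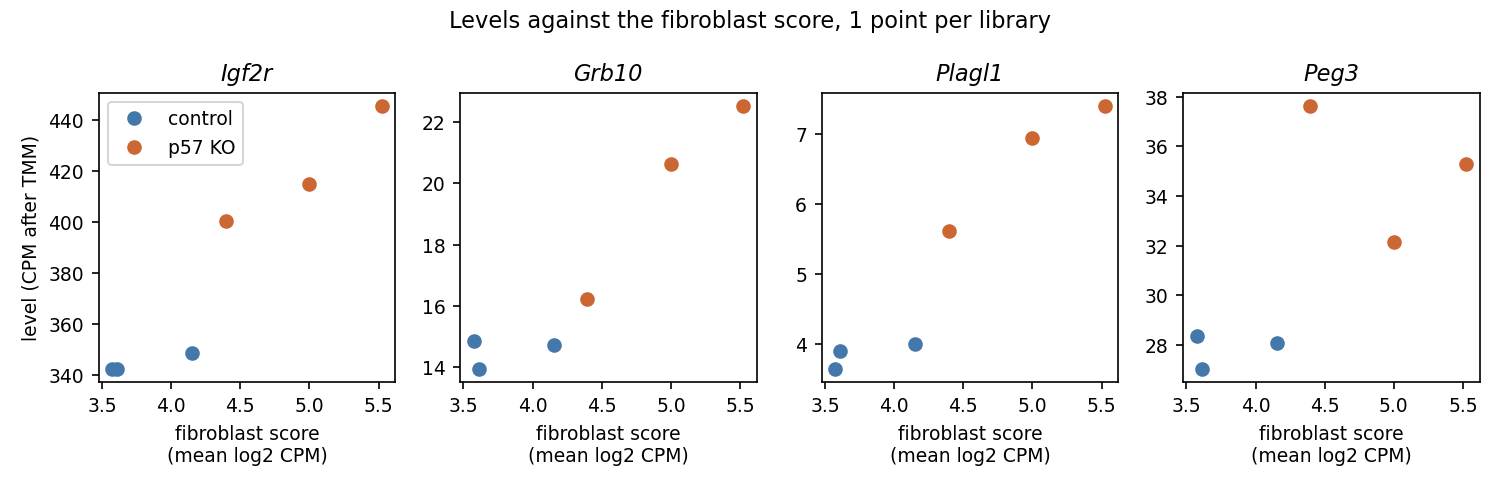
Levels of Igf2r, Grb10, Plagl1 and Peg3 in CPM against the fibroblast score, the mean log2 CPM of 20 fibroblast markers, with 1 point per library. For Igf2r, Grb10 and Plagl1 the p57 KO library with the highest score, 5.52, was also the highest in level, whereas Peg3 was highest in the p57 KO library with the lowest score, 4.40.

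Imprinted genes of other domains that PLAGL1 is known to bind or regulate include Cdkn1c, H19, Igf2 and Dlk1. H19, a long noncoding RNA, was at 225 ± 8.21 CPM in the controls and 295 ± 36.4 CPM with p57 KO (± SD, n = 3; log2 fold change 0.39, edgeR adjusted p = 0.0678). Dlk1, which encodes a membrane protein related to Notch ligands, rose by 0.54 (edgeR adjusted p = 0.000289), and had 0.43 (0.203) with the fibroblast score. Over 38 tested imprinted genes outside the 6 domains, 5 rose and 8 fell, Cdkn1c among them, with a median log2 fold change of 0.05. More falls than rises were not seen in all fits: DESeq2 gave 7 rises and 5 falls and limma-voom 8 and 7, and 5 fell in edgeR when control replicate 3 or p57 KO replicate 3 was left out. Dio3, which encodes a thyroid hormone deiodinase, had the smallest p among those that rose, with a log2 fold change of 3.05. It had 14, 12 and 15 counts in the control libraries and 120, 114 and 115 in the p57 KO libraries. After Cdkn1c, the smallest p among those that fell were those of Ube3a, a ubiquitin ligase gene (-0.31), and Sfmbt2, a Polycomb-related gene (-0.19). With the fibroblast score, 1 gene of this list was called higher, Dio3, and 2 lower, the targeted Cdkn1c and Ube3a.

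Genes that set, keep or erase methylation at imprinted control regions were counted next. Of 23 tested, 1 rose and 3 fell, with a median log2 fold change of 0.0013. Dnmt3a, a de novo DNA methyltransferase gene, had -0.21, and Trim28, whose product is recruited by ZFP57, had -0.15. Smchd1 had -0.09, and its edgeR adjusted p was 0.0679 or 0.0560 when control replicate 2 or 3 was left out. Dnmt3b had 0.14, and its adjusted p was 0.0653 when p57 KO replicate 2 was left out and 0.0631 in DESeq2. Zfp57 went from 23.5 ± 1.19 to 26.3 ± 0.909 CPM (± SD, n = 3; edgeR adjusted p = 0.0882). No gene of the list was called with the fibroblast score.

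The Peg3 domain lies on chromosome 7, the chromosome of Cdkn1c. Peg3, on the minus strand from 6703892 to 6730431, encodes a large zinc finger protein. Its levels were 28.4, 28.1 and 27.0 CPM in control and 37.6, 32.1 and 35.3 CPM in p57 KO. The control libraries were tightly grouped, and all p57 KO libraries were above them. Peg3 rose from a mean of 27.8 ± 0.708 to 35.0 ± 2.75 CPM (± SD, n = 3). By edgeR this came to 0.33 ± 0.07 (SE) on the log2 scale, with an adjusted p of 0.000832. With the fibroblast score it had a log2 fold change of 0.40 (SE 0.12, adjusted p = 0.0422 by edgeR). Because the score did not overlap between the groups, this model cannot separate group and score well.

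Usp29, which belongs to the ubiquitin-specific proteases, runs from 6730578 to 6967219 on the plus strand and starts 147 bp from Peg3, head to head. Its levels were 3.09, 3.18 and 3.71 CPM in control and 4.35, 3.29 and 3.30 CPM in p57 KO. The groups overlapped, and p57 KO replicate 1 alone was above all control libraries. Usp29 had a log2 fold change of 0.13 (SE 0.18, adjusted p = 0.657 by edgeR). With the fibroblast score it had 0.51 (SE 0.32, adjusted p = 0.498 by edgeR). The count of Peg3 divided by that of Usp29 (0.5 added to each) was 9.10, 8.76 and 7.24 in control and 8.58, 9.70 and 10.6 in p57 KO. The log2 ratio differed by 0.20 (exact two-sided permutation p = 0.3, where 0.1 is the smallest that 3 against 3 libraries allow). The ratios overlapped between the groups, although Peg3 was called and Usp29 was not. Because its p cannot go below 0.1, the permutation test cannot decide whether the balance of the pair changed.

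The RefSeq windows of both genes share 263 of their 300 bases, and their starts there are 164 bp apart. The Peg3 window, chr7:6730370-6730669 on the minus strand, is shown as the shared promoter. It held 13 CG, a number reached by 37.9% of all windows, and no TGCCGC on either strand. The motif CCATNTT, the core of sites of the factor YY1, was found in neither window on either strand, and in 16.1% of all windows.
Peg3: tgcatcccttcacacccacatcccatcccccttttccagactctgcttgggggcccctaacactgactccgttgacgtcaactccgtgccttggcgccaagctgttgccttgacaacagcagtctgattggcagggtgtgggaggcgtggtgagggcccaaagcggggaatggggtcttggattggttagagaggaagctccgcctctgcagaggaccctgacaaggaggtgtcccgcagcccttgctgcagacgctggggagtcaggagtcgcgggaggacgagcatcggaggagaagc

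Zim1, a zinc finger gene from 6671269 to 6696450 on the minus strand, was low. It had 15, 14 and 19 counts in the control libraries and 23, 23 and 24 in the p57 KO libraries. These are 0.91, 0.824 and 1.21 CPM against 1.45, 1.40 and 1.34 CPM, without overlap. The log2 fold change was 0.51 (SE 0.29, adjusted p = 0.218 by edgeR), which did not pass the test. With the fibroblast score it was 0.74 (SE 0.54, adjusted p = 0.584 by edgeR). In the neighbourhood of Usp29, Zim3 shares 2582 bp of exon with Usp29 on the opposite strand, which is 14.3% of the exon length of Usp29. Without strand, reads from this stretch cannot be assigned to a gene.

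Peg10, a gene derived from a retrotransposon and needed for the placenta, and Sgce, the gene of epsilon-sarcoglycan, form a second head-to-head pair. On chromosome 6, Peg10 runs from 4747306 to 4760517 on the plus strand, and Sgce from 4674350 to 4747207 on the minus strand, with starts 99 bp apart. Peg10 was at 17.2, 16.9 and 16.4 CPM in control and at 16.9, 18.4 and 17.7 CPM in p57 KO. The groups overlapped, and the log2 fold change was 0.07 (SE 0.08, adjusted p = 0.585 by edgeR). With the fibroblast score it was 0.0060 (SE 0.15, adjusted p = 0.993 by edgeR).

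Sgce was near 1 CPM in control and doubled in p57 KO. It had 19, 20 and 19 counts in the control libraries (1.15, 1.18 and 1.21 CPM) and 31, 44 and 46 in the p57 KO libraries (1.96, 2.68 and 2.58 CPM). All p57 KO libraries were above the control libraries. Sgce rose from a mean of 1.18 ± 0.0311 to 2.40 ± 0.391 CPM (± SD, n = 3). edgeR put the log2 fold change at 1.02 ± 0.25 (SE), with an adjusted p of 0.00447. Given the fibroblast score, the log2 fold change was 0.68 (SE 0.45; adjusted p = 0.532 by edgeR).

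In this pair the ratio of Peg10 to Sgce was lower in every p57 KO library than in every control library. The count of Peg10 divided by that of Sgce was 14.6, 14.1 and 13.2 in control and 8.49, 6.82 and 6.81 in p57 KO. The log2 ratio was 3.80 ± 0.0759 in control and 2.87 ± 0.183 in p57 KO (± SD, n = 3), a difference of -0.93 (exact two-sided permutation p = 0.1, the smallest possible here). Because its p cannot go below 0.1, the permutation test cannot decide whether the balance of the pair changed. The ratio compares genes within a library and does not depend on scaling. RefSeq windows were found for 8 of the 10 genes, Peg10 and Sgce being the others.

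**Figure D4:**
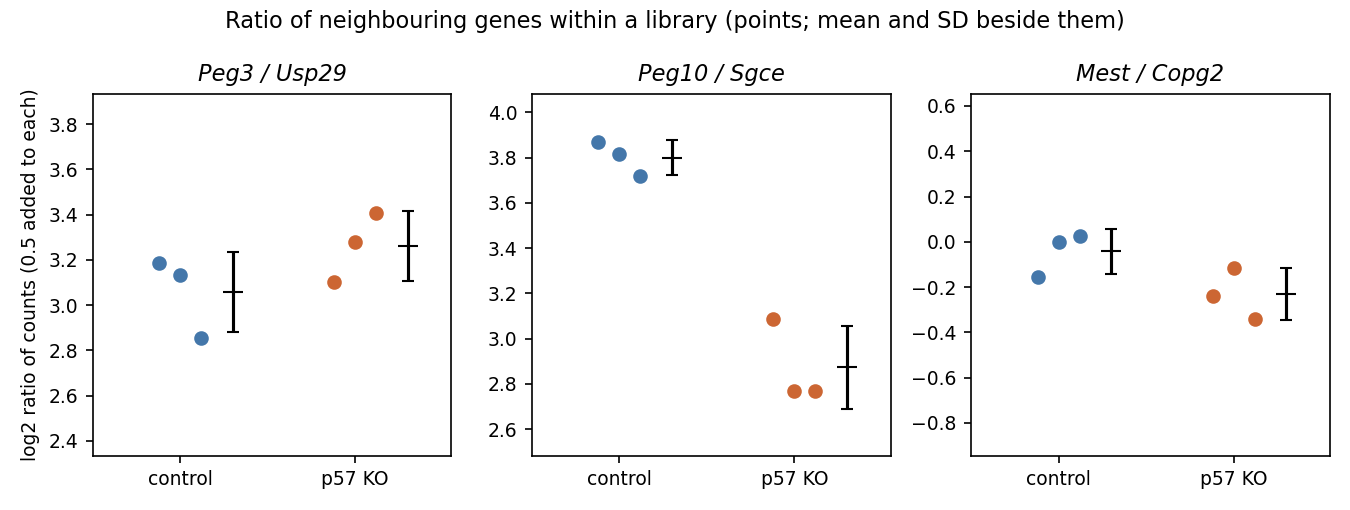
Log2 ratio of the counts of 2 neighbouring genes in each library, for Peg3 and Usp29, Peg10 and Sgce, and Mest and Copg2. Each panel spans 1.6 log2 units, points are libraries, and bars are the mean with its SD (n = 3). The Peg10 to Sgce ratio was between 3.72 and 3.87 in control and between 2.77 and 3.09 in p57 KO. The other ratios overlapped between the groups.

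Other components of the sarcoglycan and dystroglycan complex went both ways. Of 10 tested, 4 rose and 2 fell, with a median log2 fold change of 0.17. DESeq2 called 1 higher and 1 lower. In edgeR 1 rose and 1 fell when control replicate 2 or p57 KO replicate 3 was left out, 2 rose and 1 fell without control replicate 3, and 3 rose and 1 fell without p57 KO replicate 2. Dag1, the gene of dystroglycan, had -0.16, and Utrn, the gene of utrophin, had 0.21. Sgcd, which encodes delta-sarcoglycan, was at 0.431 ± 0.141 CPM in the controls and 1.17 ± 0.562 CPM with p57 KO (log2 fold change 1.46), and its adjusted p was 0.145 when p57 KO replicate 3 was left out, 0.0811 when control replicate 2 was, and 0.0762 in DESeq2. Sntb2, a syntrophin gene, had 0.14, and its adjusted p was 0.0684 in DESeq2 and 0.0610, 0.146 or 0.0714 when control replicate 2, control replicate 3 or p57 KO replicate 3 was left out. With the fibroblast score no gene of the list was called. Among 12 tested relatives of Peg10 by origin, the gag-derived genes, 2 rose and 1 fell, with a median of 0.36. The stricter filter left 9 of them with a median of 0.089, and without p57 KO replicate 1 edgeR called 6 of 13 higher. Arc, known for its role at synapses, rose by 0.59, and by 0.61 with the fibroblast score (edgeR adjusted p = 0.000301). Rtl5 had 0.50, and 0.43 (0.242) with the score. Zcchc12 had -0.31, and a DESeq2 adjusted p of 0.0600.

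Mest, which encodes a protein of the hydrolase fold family in the endoplasmic reticulum, was lower in p57 KO. It runs from 30723547 to 30748465 on the plus strand of chromosome 6. Its levels were 127, 131 and 143 CPM in control and 109, 115 and 102.5 CPM in p57 KO, with no overlap. Mest fell from a mean of 134 ± 8.12 to 109 ± 6.22 CPM (± SD, n = 3). On the log2 scale this was -0.30 ± 0.05 (SE), with an adjusted p of 0.000513. Once the fibroblast score was included, the log2 fold change was -0.22 (SE 0.07; adjusted p = 0.108 by edgeR). RefSeq gives 3 start windows for Mest. The one at chr6:30737800-30738099, on the plus strand, is shown because it held the motif TGCCGC or its reverse complement 2 times, as did a second window that starts 3 bases on, and 17 CG.
Mest: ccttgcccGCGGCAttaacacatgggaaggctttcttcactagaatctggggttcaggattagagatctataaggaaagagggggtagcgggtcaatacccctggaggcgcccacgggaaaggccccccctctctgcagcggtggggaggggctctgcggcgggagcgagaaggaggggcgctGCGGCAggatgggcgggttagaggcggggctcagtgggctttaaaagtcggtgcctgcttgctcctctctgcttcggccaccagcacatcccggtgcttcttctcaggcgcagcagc

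Copg2, the gene of a gamma subunit of the COPI vesicle coat, meets Mest tail to tail. It lies on the minus strand from 30747554 to 30896794, and 912 bp at the ends of the genes overlap, 23.1% of the exon length of Mest and 17.8% of that of Copg2. Reads from this stretch cannot be assigned to a gene without strand, and no source used here gives the strand setting. Copg2 was at 141, 131 and 140.0 CPM in control and at 128, 124 and 129.9 CPM in p57 KO. The lowest control library was just above the highest p57 KO library. Copg2 fell from a mean of 137 ± 5.47 to 127 ± 2.78 CPM (± SD, n = 3). By edgeR this came to -0.11 ± 0.04 (SE) on the log2 scale, with an adjusted p of 0.0298. The call did not hold in every fit. Its adjusted p was 0.107 in DESeq2 and 0.0524 in limma-voom. Leaving out control replicate 1, control replicate 3 or p57 KO replicate 2 gave edgeR values of 0.132, 0.113 and 0.118. Beside the fibroblast score the log2 fold change was -0.07 (adjusted p = 0.702). Its RefSeq window, chr6:30896745-30897044 on the minus strand, held 25 CG and 1 GCGGCA.
Copg2: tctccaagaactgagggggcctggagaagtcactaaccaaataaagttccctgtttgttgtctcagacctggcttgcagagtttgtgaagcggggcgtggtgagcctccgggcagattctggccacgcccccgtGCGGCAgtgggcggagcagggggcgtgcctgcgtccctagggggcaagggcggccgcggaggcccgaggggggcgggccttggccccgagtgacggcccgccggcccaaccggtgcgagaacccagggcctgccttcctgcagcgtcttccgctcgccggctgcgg

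The count of Mest divided by that of Copg2 was 0.899, 0.9996 and 1.02 in control and 0.848, 0.924 and 0.789 in p57 KO. The groups overlapped, and the log2 ratio differed by -0.19 (exact two-sided permutation p = 0.2). The paralog Copg1 was at 215 ± 6.16 CPM in the controls and 220.4 ± 0.214 CPM with p57 KO (edgeR adjusted p = 0.379). Of 13 tested genes of the COPI coat, Copz2, a zeta subunit gene, rose by 0.70, and had 0.54 (edgeR adjusted p = 0.401) beside the fibroblast score. Copb1, a beta subunit gene, fell by 0.10 with an edgeR adjusted p of 0.0442, and that p was above 0.05 in DESeq2 (0.159), in limma-voom (0.0585), with the stricter filter (0.0542) and in 5 of the 6 fits that left out a library (control replicates 1 to 3 and p57 KO replicates 1 and 2). The median of the list was -0.0022, and none of its genes was called with the fibroblast score.

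**Figure D5:**
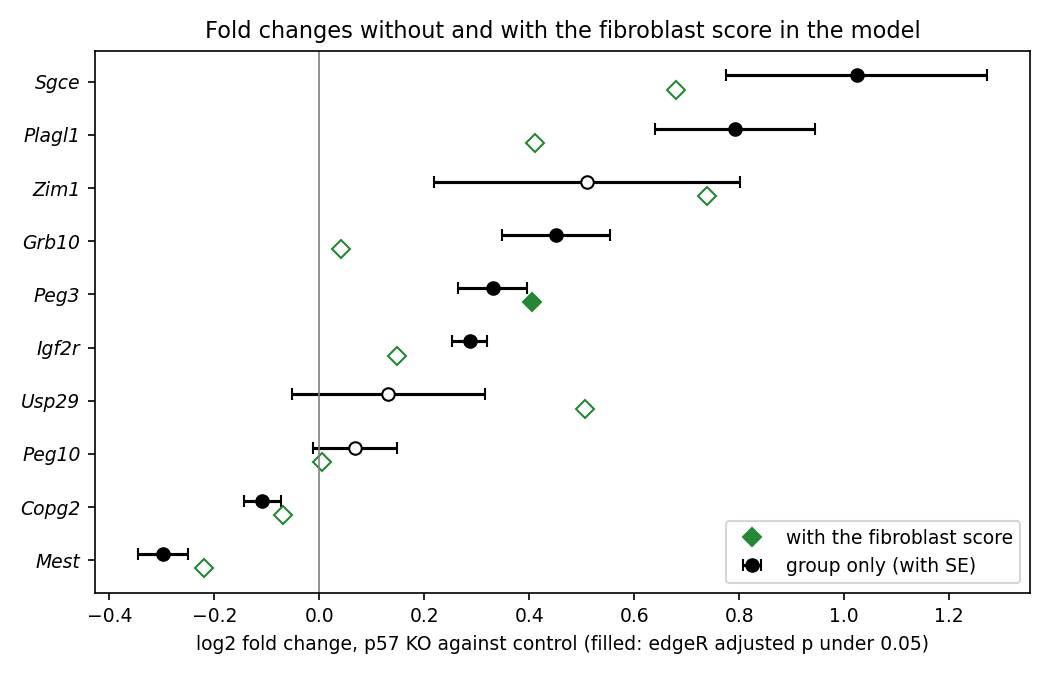
Log2 fold change of each gene, p57 KO against control, from the model with the group only (circles, with SE) and from the model that also holds the fibroblast score (diamonds). Filled symbols have an edgeR adjusted p under 0.05, and of the diamonds that of Peg3 alone is filled, at 0.40.

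Genes beside the 10 in their domains were followed as well. Of 30 found in the table by symbol, 20 were tested, 3 rose, 1 fell and 16 were not called, with a median log2 fold change of 0.04. Airn is given above. Pdk4, a pyruvate dehydrogenase kinase gene beyond Peg10, rose from 0.869 ± 0.267 to 3.20 ± 1.24 CPM (± SD, n = 3; log2 fold change 1.88), and had 0.63 with the fibroblast score (edgeR adjusted p = 0.563). Cobl, beside Grb10, rose by 1.04, and its adjusted p was 0.0567 or 0.0600 when control replicate 1 or 2 was left out and 0.0710 in DESeq2. Fignl1, a DNA repair gene near Grb10, had -0.13 with overlapping groups. Its adjusted p was 0.135 in DESeq2, 0.0587 in limma-voom, and above 0.05 in 4 of the 6 fits that left out a library, at most 0.179 (control replicate 3). Among the neighbours that were not called, Zim3 was lower in every p57 KO library (log2 fold change -0.82, edgeR adjusted p = 0.0573). Pon3 (0.59, 0.113), Ikzf1 (0.82, 0.152) and Ltv1 (0.04, 0.451), also not called, were higher in every one. Pon2 had 1.30 (0.101) with overlapping groups, and was called in DESeq2 (0.0310). Over the list DESeq2 called 3 higher and 0 lower and limma-voom 2 and 0, and edgeR 1 to 4 higher with a library left out (1 without control replicate 1). No neighbour was called with the fibroblast score.

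The 3 genes of highest CPM were compared with 9755 other genes of at least 10 CPM by Pearson correlation of log2 CPM over the 6 libraries, a measure that the group difference dominates. Igf2r was most like Chmp4b, Selenow and Eif3a, with r = 0.998 for each. Mest was most like Rpusd1 (r = 0.997), Rlim (0.994) and Slc35b3 (0.993). Copg2 was most like Myo9a (r = 0.989), Dnaja2 (0.988) and Stxbp4 (0.986).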

How the data were processed

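The authors deposited raw counts, 1 row per gene and 1 column per library, without normalization. Per the submitters' processing notes, the tools were HISAT2 2.2.1 and HTSeq 2.0.2, with cutadapt 3.4 and bcl2fastq 2.20, on mm10. For annotation, strand setting and multi-mapping reads, the sources used here do not give the choice. Of 32285 gene identifiers, 32158 were found in GENCODE M21 (same build), which gave positions and exon lengths. Genes were filtered with edgeR's filterByExpr (14814 left), given TMM factors and compared by the quasi-likelihood test of edgeR 4.0.16 (with limma 3.58.1 under R 4.3.3), group as the only term, robust dispersions, Benjamini-Hochberg adjustment over all tested genes, threshold 0.05. "Rose" and "fell" refer to called genes. The common biological coefficient of variation was 4.35%. Pair ratios were tested by exact permutation. Replicates of a group differed by more than sampling noise (chi-square per degree of freedom 1.69 to 5.97). The labels do not say that replicates were separate cultures, so the p-values reflect spread among these libraries only, possibly technical. The 10 genes, the 13 other lists and the tests were chosen with earlier results of these data known. The rule for naming genes took up to 4 called genes of smallest p from each list and any tested neighbour. Most genes it took from the cell type marker lists are given by counts and sums only, and 1 gene is not reported here. Igf2, Insr, M6pr, H19, Dlk1, Zfp57 and Copg1 were chosen after their values were seen. Alternatives were RLE factors, DESeq2 1.42.0, limma-voom, no filter, at least 1 CPM in 3 libraries, a replicate block, the fibroblast score as covariate, each library left out, a fold of 1.2 and, for ratios, a pseudocount of 2.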

Additional observations from a re-analysis of the deposited data

How the results depend on the processing

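RLE factors, no filter and the stricter filter kept direction and call of all 10 genes. The number that rose was 5 in every fit except with the fibroblast score (1) and against a fold of 1.2 (2). The number that fell was 2, but 1 in DESeq2, 1 in limma-voom, 0 with the fibroblast score and 0 against a fold of 1.2. Leaving out single libraries, 5 rose each time and 1 to 2 fell; the lost call was that of Copg2. The fall in calls against a fold of 1.2 follows from the stricter hypothesis. With the fibroblast score, the group and the score cannot be told apart well, since the score did not overlap between the groups. Leaving out single libraries, the difference of the log2 ratio was 0.10 to 0.28 for Peg3 to Usp29 (0.10 without control replicate 3), -1.03 to -0.87 for Peg10 to Sgce and -0.25 to -0.13 for Mest to Copg2. With a replicate block in edgeR, 5 of the 10 genes rose and 2 fell, as without it, and 3706 genes were called in all, against 3450. Replicate numbers share only a number: deviations from the group means correlated at 0.19, 0.02 and -0.10 for numbers 1 to 3, and not every library correlated best with its own number. Zim1, Sgce and Airn rest on few reads, 13 to 59 counts per library. So do the neighbours Pdk4 (11 to 82), Cobl (13 to 37), Ikzf1 (5 to 13), Zim3 (11 to 31), Pon3 (17 to 34) and Pon2 (13 to 69).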
